A study of Mus musculus with 8 samples.

Results

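The regulatory T-cell and checkpoint genes are 10 named genes of the immune system, taken by symbol from the gene count table of 8 RNA-seq libraries. All 10 were found among the 52784 genes of that table. They fall into 3 roles. Foxp3, Ikzf2 and Ikzf4 encode transcription factors of regulatory T cells. Cd28, Ctla4 and Icos encode the co-stimulatory family of T-cell receptors. Pdcd1, Lag3, Tigit and Havcr2 encode inhibitory receptors.

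The dams were C57BL/6 (CD11c-DTR) females, which carry a diphtheria toxin receptor driven by the CD11c promoter, and they were mated with BALB/c males. Intrauterine transplantation (IUT) at E14 placed 5000000 bone marrow mononuclear cells in the liver of each fetus, from B6 donors (DC control mIUT) or from BALB/c donors (DC control pIUT), after a saline injection of the dam. In DC-depleted pIUT the dam had instead received diphtheria toxin at 5 ng/g on E13, which removes CD11c-expressing dendritic cells (DC) for a time, and the fetuses received BALB/c cells. Uninjected pups received no IUT and came from dams with or without toxin, in a division that the sources used here do not give. All cells came from F1 pups of 1 week of age. Trafficked maternal cells, which had crossed from the dam into the pup, and recipient cells, the pup's own, were sorted from whole-body harvests by magnetic beads and flow cytometry with antibodies to H2K-b and H2K-d respectively. F1 cells carry both of these molecules, and the donor cells carry one of them (H2K-b in mIUT, H2K-d in pIUT), so any donor cells left in a sort cannot be told apart from the labelled cells by these counts. Each of the 8 groups is 1 library from cells of several pups, with no replicate, so no test was run, and every interval below covers counting error only.

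Regulatory T cells restrain other T cells, and FOXP3 is the transcription factor that defines them. Helios (Ikzf2) and Eos (Ikzf4) are Ikaros-family factors that work with it. CD28 gives the second signal for T-cell activation on binding CD80 or CD86. CTLA-4 binds the same ligands with higher affinity and acts as a brake, and ICOS, which binds ICOSL, supports helper and regulatory T cells. PD-1 (Pdcd1), LAG-3, TIGIT and TIM-3 (Havcr2) are receptors that dampen activated or exhausted T cells, and TIM-3 is also found on macrophages, DC and mast cells. In a pup that carries maternal and donor cells, these genes belong to the machinery of tolerance.

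Cd28, Ctla4 and Icos are the 3 protein-coding genes of 1 stretch of chromosome 1 of 284 kb (GRCm39, chr1:60755959-61039479, plus strand). Foxp3 lies on chromosome X (chrX:7439883-7461484, plus strand, 13 exons in its canonical transcript). The 250 bases before the first exon of the canonical transcript are shown for Ctla4 and Icos, the neighbours whose counts moved most alike in these libraries, and for Foxp3, read from the GRCm39 genome.
Ctla4, chr1:60947934-60948183, plus strand: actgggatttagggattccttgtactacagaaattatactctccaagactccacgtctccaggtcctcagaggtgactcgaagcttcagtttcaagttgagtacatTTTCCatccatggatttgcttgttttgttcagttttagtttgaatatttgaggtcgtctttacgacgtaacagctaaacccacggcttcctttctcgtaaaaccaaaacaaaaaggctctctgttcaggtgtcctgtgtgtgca
Icos, chr1:61016836-61017085, plus strand: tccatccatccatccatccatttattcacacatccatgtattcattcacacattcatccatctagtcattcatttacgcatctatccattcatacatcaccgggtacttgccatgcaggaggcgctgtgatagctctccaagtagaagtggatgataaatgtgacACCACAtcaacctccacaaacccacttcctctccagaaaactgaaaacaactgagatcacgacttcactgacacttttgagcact
Foxp3, chrX:7445658-7445907, plus strand: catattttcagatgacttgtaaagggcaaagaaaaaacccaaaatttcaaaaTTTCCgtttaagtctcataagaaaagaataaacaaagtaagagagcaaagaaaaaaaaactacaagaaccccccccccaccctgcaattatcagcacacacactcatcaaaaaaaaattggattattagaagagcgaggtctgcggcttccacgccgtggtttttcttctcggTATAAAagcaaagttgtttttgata
Capitals mark letters that matched one of 5 motifs on either strand. The core letters bound by NFAT, GGAAA, were found once before Ctla4 and once before Foxp3, and they were present in 58.0% of the 21770 windows of this length before protein-coding genes. The RUNX motif, searched as TGTGGT, was found once before Icos (13% of windows). The TATA box, searched as TATAAA, was found once before Foxp3 (11.9% of windows). The AP-1 motif, searched as TGANTCA (6.17% of windows), was in none of these 3 windows. The same was true of the forkhead motif, searched as TGTTTAC (2.72% of windows). Ctla4 and Icos therefore shared none of the 5 motifs in this window. A match of letters is a description and not a binding site.

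Total counts were 38543457 to 47965130 per library, so 3 counts corresponded to 0.0547 to 0.105 CPM (counts scaled to one common sequencing depth) after scaling by edgeR's trimmed mean of M-values (TMM). Detection needed more than 3 counts. Recipient uninjected and maternal mIUT stood apart. Of the genes at 10 CPM or more in every other library, 9.51% were below 1 CPM in recipient uninjected (359 of 3776) and 4.86% in maternal mIUT (176 of 3622), against 0% to 1.26% in the other 6. The cells were labelled as mononuclear cells, yet a list of 9 granulocyte genes reached 276432 CPM in recipient mIUT and 168984 CPM in maternal mIUT, and a list of 8 erythroid genes reached 146316 CPM in maternal DC-depleted pIUT. In bulk samples, fewer cells of a type and less RNA per cell cannot be told apart.

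Among recipient cells, these genes were nearly empty in uninjected pups and broadly present after pIUT with or without DC depletion. Of the 10 genes, recipient uninjected had 1 over 3 counts, recipient mIUT 8, recipient pIUT 9 and recipient DC-depleted pIUT 10. Among trafficked maternal cells the uninjected pups had the most, with 8 genes detected, against 6 after mIUT, 3 after pIUT and 5 after DC-depleted pIUT. For comparison, 12686 genes had their highest CPM within the range of the highest CPM of these 10 (0.620 to 72.2). Of those genes, 62.9%, 43.1%, 63.5% and 66.6% were detected in the maternal libraries, in the order uninjected, mIUT, pIUT and DC-depleted pIUT, and 36.4%, 67.3%, 75.5% and 85.3% in the recipient libraries. The share of the 10 genes was below that of the like genes in recipient uninjected, maternal pIUT and maternal DC-depleted pIUT, and above it in the other 5 libraries.

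**Figure D1:**
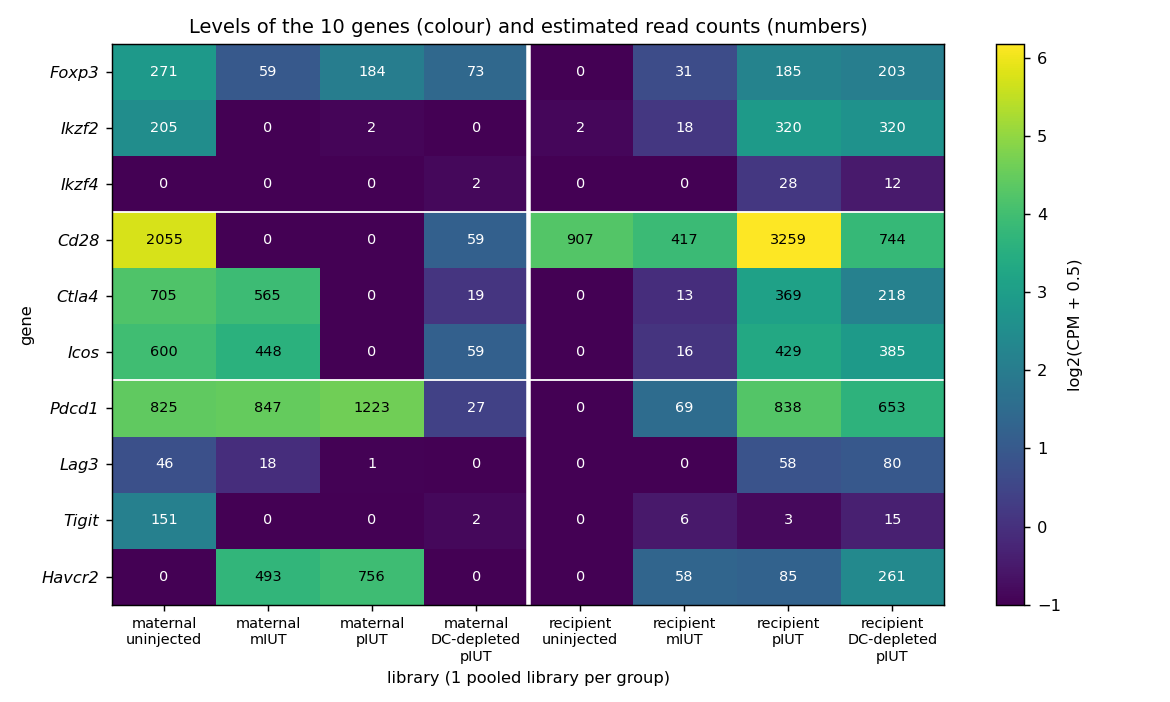
Each row is a gene and each column a library; the number is the estimated read count and the colour log2(CPM + 0.5). Recipient uninjected holds counts almost only for Cd28 (907), while recipient DC-depleted pIUT has counts for all 10 genes and maternal pIUT has 0 counts in 5 of them.

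**Figure D2:**
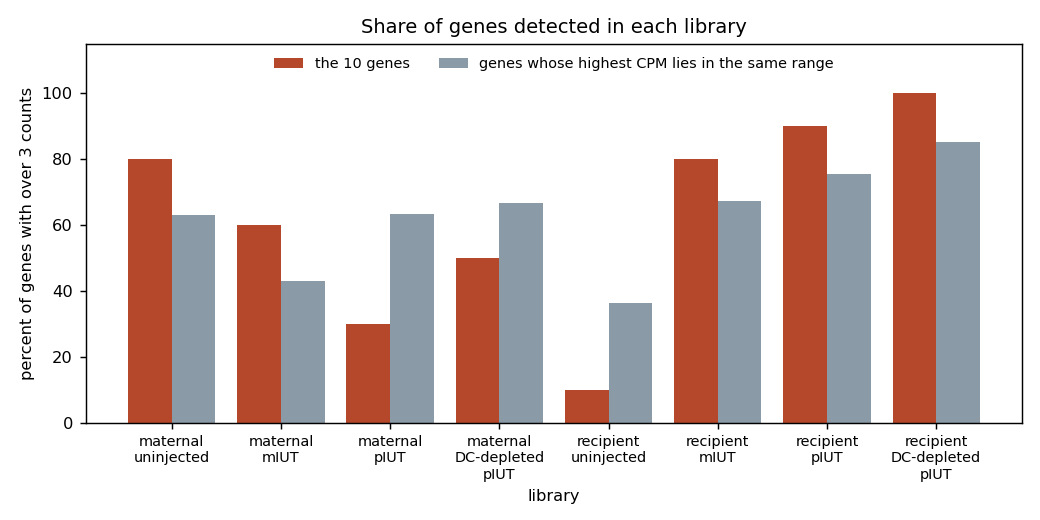
Bars give, for each library, the percent of genes with over 3 counts, among the 10 genes and among the 12686 genes whose highest CPM lies in the same range. In maternal pIUT 3 of the 10 genes were detected against 63.5% of the like genes, and in recipient uninjected 1 of 10 against 36.4%.

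Foxp3, the defining factor of regulatory T cells, had 271, 59, 184 and 73 counts in maternal cells (uninjected, mIUT, pIUT and DC-depleted pIUT, the order used throughout). In recipient cells it had 0, 31, 185 and 203 counts. It was thus detected in every library but recipient uninjected, where 0 counts allow up to 0.0620 CPM. Maternal uninjected was the highest at 6.96 CPM (95% Poisson interval 6.16 to 7.84). Recipient pIUT, recipient DC-depleted pIUT and maternal pIUT followed at 4.10, 3.70 and 3.64 CPM, and the intervals of neighbours in this order overlapped. Foxp3 counts may include reads of a partner, since its annotated exons share 590 bases with Ccdc22 on the opposite strand and 853 with the long noncoding RNA Flicr on its own strand, and the sources used here do not say whether counting used strand. Ccdc22 had 2112, 693, 4043 and 1826 counts in maternal cells and 0, 760, 2555 and 3586 in recipient cells, while Flicr had 45 counts in recipient pIUT, 1 in maternal uninjected and 0 elsewhere. Gm36995 and Ppp1r3f, both on the opposite strand, share 373 and 266 bases. Gm36995 had 21 counts in recipient mIUT, beside 31 of Foxp3, and 0 elsewhere. Ppp1r3f had 10, 0, 0 and 1 counts in maternal cells and 0, 0, 0 and 16 in recipient cells. The part of these genes in the Foxp3 counts was not tested.

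Ikzf2 (Helios) had 205, 0, 2 and 0 counts in maternal cells and 2, 18, 320 and 320 in recipient cells. Its transcripts were therefore detected in maternal cells of uninjected pups only, and in recipient cells after IUT of each kind. Ikzf4 (Eos) was the scarcest of the 10 genes. It had 28 counts in recipient pIUT and 12 in recipient DC-depleted pIUT, 2 in maternal DC-depleted pIUT and 0 in the other 5 libraries. In maternal pIUT and maternal DC-depleted pIUT, Foxp3 was thus present with Ikzf2 at 2 and 0 counts. The T-cell coreceptor gene Cd4 was at 0 counts in those same 2 libraries, where 13 and 14 of the 15 T-cell markers were detected, and Il2ra, the CD25 chain by which regulatory T cells are often sorted, had 0 and 8 counts there against 3243 and 2710 in the matching recipient libraries. Of a list of 20 genes associated with regulatory T cells, 2 were higher by 2-fold or more in maternal than in recipient pIUT and 11 lower, where 26.3% and 35.6% of all genes were. The 2 were Lrrc32, with 641 against 6 counts, and Prdm1, with 19 against 0. In the DC-depleted pIUT pair 0 were higher and 19 lower (22.6% and 41.0% of all genes). Cd4, Il2ra, Lrrc32 and Prdm1 were picked for mention after their values were seen.

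Cd28 had 2055, 0, 0 and 59 counts in maternal cells and 907, 417, 3259 and 744 in recipient cells. It was the only one of the 10 genes detected in recipient uninjected, and it was the most abundant of the 10 by CPM in 4 of 4 recipient libraries. Ctla4 had 705, 565, 0 and 19 counts in maternal cells and 0, 13, 369 and 218 in recipient cells. Icos had 600, 448, 0 and 59 counts in maternal cells and 0, 16, 429 and 385 in recipient cells. Ctla4 and Icos had the same order of levels over the libraries and were both at 0 in maternal pIUT and recipient uninjected. Cd28, their neighbour on chromosome 1, did not share it. In maternal mIUT Cd28 had 0 counts beside 565 for Ctla4 and 448 for Icos, and in recipient uninjected the reverse held, with 907 for Cd28 and 0 for both others. A pseudogene inside Ctla4, Rpl18-ps1, shares no exon base with it and had 2 to 75 counts.

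Pdcd1 (PD-1) had 825, 847, 1223 and 27 counts in maternal cells and 0, 69, 838 and 653 in recipient cells. Its level was 21.2, 21.9 and 24.2 CPM in the first 3 maternal libraries, which differed by no more than 1.14-fold (95% interval 1.04 to 1.25). Havcr2 (TIM-3) had 0, 493, 756 and 0 counts in maternal cells and 0, 58, 85 and 261 in recipient cells. It was the one gene of the 10 that was absent from maternal uninjected and well above the floor in maternal mIUT and pIUT. Tigit had 151, 0, 0 and 2 counts in maternal cells and 0, 6, 3 and 15 in recipient cells, so it was essentially a transcript of maternal cells in uninjected pups. Lag3 had 46, 18, 1 and 0 counts in maternal cells and 0, 0, 58 and 80 in recipient cells.

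Divided by the length of the canonical transcript, levels can be compared between genes only roughly, since the transcript forms present were not measured. In maternal uninjected, Cd28, Pdcd1 and Ctla4 led at 12.1, 10.8 and 9.37 CPM per kb, with Icos at 4.76, Tigit at 3.70 and Foxp3 at 1.85 CPM per kb. In recipient pIUT, Cd28 led at 16.6 CPM per kb, followed by Pdcd1 at 9.43, Ctla4 at 4.23, Icos at 2.93 and Foxp3 at 1.09 CPM per kb. The co-stimulatory genes and Pdcd1 stood above the 3 transcription factors in both libraries. Tigit, by contrast, was at 0.0633 CPM per kb in recipient pIUT.

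The first comparison asks how cells from pups that received IUT differed from those of uninjected pups. In maternal cells, Ikzf2, Cd28, Tigit and Lag3 were lower by 2-fold or more in all 3 IUT groups, and no gene was higher in all 3. Cd28 was at least 682-fold lower after mIUT, at least 890.4-fold lower after pIUT and 29.6-fold lower (95% interval 22.8 to 39) after DC-depleted pIUT. Ikzf2 was at least 68.0-fold lower after mIUT, 133-fold lower after pIUT (36.4 to 1108) and at least 58.0-fold lower after DC-depleted pIUT. Here "at least" marks a gene with 0 counts in one library, which was set to 3 counts. A ratio with 1 to 3 counts in one library, such as the 2 counts of Ikzf2 after pIUT, used the counts themselves, so it is not on the scale of the bounds and does not rank that library below those at 0. Ctla4 and Icos split the IUT groups. They were 1.24-fold (1.11 to 1.39) and 1.33-fold (1.18 to 1.51) lower after mIUT, at least 305-fold and at least 260.0-fold lower after pIUT, and 31.5-fold (20 to 52.6) and 8.63-fold (6.60 to 11.5) lower after DC-depleted pIUT. Pdcd1 was 1.03-fold its uninjected level after mIUT (0.936 to 1.14), 1.14-fold after pIUT, where the sign of these small differences changes with the scaling, and 25.9-fold lower after DC-depleted pIUT (17.7 to 39.6). Havcr2 was at least 165-fold higher after mIUT and at least 194-fold higher after pIUT. Foxp3 was 4.57-fold lower after mIUT (3.44 to 6.16), 1.91-fold after pIUT (1.58 to 2.32) and 3.15-fold after DC-depleted pIUT (2.42 to 4.14). The summed level of the CD3 genes Cd3d, Cd3e and Cd3g was itself lower, 3.39-fold after mIUT, 17.6-fold after pIUT and 5.5-fold after DC-depleted pIUT. The CD3 genes did not fall alike. Cd3d was at 363, 196, 10.4 and 123 CPM in maternal cells, Cd3e at 373, 58.3, 24.9 and 23.0 CPM and Cd3g at 309.7, 54.5, 23.9 and 44.3 CPM. A gene at an unchanged CPM is higher per CD3 count by the factor that the sum fell, and several directions differed on that scale. On that scale Foxp3 was 9.22-fold higher after pIUT (7.60 to 11.2), 1.75-fold higher after DC-depleted pIUT (1.33 to 2.27) and at 0.742-fold after mIUT (0.550 to 0.986), the last at 1.03-fold per count of the 15 T-cell markers. Pdcd1 per CD3 count was 20.1-fold higher after pIUT (18.4 to 22.0) and 3.5-fold higher after mIUT (3.17 to 3.85), and Ctla4 was 2.73-fold higher after mIUT (2.44 to 3.05). Per CD3 count 4 of the 10 genes were higher and 3 lower after mIUT (52.7% and 29.2% of all genes), 3 and 5 after pIUT (84.0% and 9.39%), and 0 and 6 after DC-depleted pIUT (70.7% and 13.8%). The median log2 fold change over all genes was 1.16, 4.14 and 2.52 on this scale, against 0.41, -1.89 and -2.33 for the 10, so the higher values of Foxp3 after pIUT and DC-depleted pIUT are below the all-gene median.

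Counted at a threshold of 2-fold, 1 of the 10 genes was higher and 5 lower after mIUT in maternal cells, where 26.5% of all genes tested were higher and 44.0% lower. After pIUT, 1 was higher and 6 lower (33.3% and 33.7% of all genes). After DC-depleted pIUT, 0 were higher and 8 lower (35.3% and 34.7% of all genes). The median log2 fold change of the 10 genes was -1.35, -6.03 and -4.79 in these comparisons, beside -0.60, 0.00 and 0.06 over all genes. The share of lower genes among the 10 was close to that of all genes after mIUT and above it after pIUT and DC-depleted pIUT. These 3 comparisons share the maternal uninjected library. T-cell genes moved in the same direction. Of 15 T-cell markers 14, 15 and 14 were lower by 2-fold or more, and their summed level was 3909.7, 829, 241 and 851 CPM in the maternal libraries. The 10 natural killer and innate lymphoid genes summed to 1597, 381, 207 and 112 CPM. All 9 B-cell markers were lower in each of the 3 comparisons, as were 8, 6 and 7 of the 9 dendritic-cell markers. After mIUT 9 of 9 granulocyte markers and 6 of 7 hepatocyte markers were higher, and 7 of 8 erythroid markers were lower. After pIUT 5 of 8 erythroid, 4 of 7 hepatocyte and 4 of 6 mesenchymal markers were higher, and 5 of 9 granulocyte markers were lower. After DC-depleted pIUT 6 of 9 granulocyte, 6 of 7 hepatocyte and 5 of 6 mesenchymal markers were higher, with 1, 0 and 1 lower. The part of these markers in the result was not tested.

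In recipient cells the same contrasts ran upward. After pIUT, 9 of the 10 genes were 2-fold or more higher than in uninjected pups and 0 lower, where 52.2% of all genes were higher and 20.2% lower. After DC-depleted pIUT, 9 were higher and 0 lower (53.1% and 18.2% of all genes). After mIUT, 7 were higher and 0 lower (53.6% and 24.7% of all genes). Pdcd1 was at least 299-fold higher after pIUT, Icos at least 153-fold, Ctla4 at least 132-fold and Foxp3 at least 66.0-fold, and Ikzf2 was 171-fold higher (47.0 to 1421). After DC-depleted pIUT these were at least 192, 113, 64.1 and 59.7-fold for Pdcd1, Icos, Ctla4 and Foxp3, and 141-fold (38.8 to 1171) for Ikzf2. Cd28 was 3.85-fold higher after pIUT (3.57 to 4.15) and 1.38-fold lower after DC-depleted pIUT (1.25 to 1.52). CD3 was itself 5.27-fold higher after pIUT. Per CD3 count Cd28 was lower after pIUT, at 0.729-fold (0.678 to 0.786), and the bounds fell to 12.5-fold for Foxp3 and 56.7-fold for Pdcd1. On that scale 7 of the 10 genes were higher and 0 lower after pIUT, where 32.3% and 52.8% of all genes were, 9 and 0 after DC-depleted pIUT (47.7% and 24.0%) and 6 and 1 after mIUT (43.6% and 35.8%). After mIUT the CD3 sum was 1.95-fold higher, yet only Cd3d rose, from 35.5 to 399 CPM. Cd3e fell from 97.3 to 36.1 CPM and Cd3g from 121 to 58.6 CPM, so the mIUT values on this scale depend mostly on Cd3d. The 3 comparisons share recipient uninjected, the library with the largest share of missing genes. In recipient uninjected 14 of 15 T-cell markers were detected, with a sum of 1092 CPM. In recipient mIUT, where Foxp3 had 31 counts and Pdcd1 69, the sum was 986 CPM, of which Cd3d alone held 399 CPM. The CD3 sum was 253 CPM in recipient uninjected and 494 CPM in recipient mIUT. Clonotypes of the T-cell receptor alpha and beta chains numbered 34 and 406. The part of T-cell content in the zeros of the 10 genes was not tested. T-cell markers rose with the 10 genes after pIUT, where 12 of 15 were higher than in uninjected pups (median log2 fold change 2.38, 6944 CPM) and 7 of 8 thymocyte markers were higher. After DC-depleted pIUT 5 of the 15 were higher and 4 lower, and after mIUT 3 were higher and 6 lower. Other markers moved in all 3 comparisons. After mIUT, pIUT and DC-depleted pIUT, 8, 8 and 8 of 8 mast cell and basophil markers were higher, as were 6, 6 and 7 of 10 natural killer and innate lymphoid markers and 4, 8 and 7 of 9 dendritic-cell markers, while 8, 7 and 7 of 8 erythroid markers were lower. The part of these markers in the result was not tested.

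Against recipient mIUT in place of recipient uninjected, 8 of the 10 genes were higher by 2-fold or more after pIUT and 8 after DC-depleted pIUT. Of all genes, 32.6% and 37.7% were higher. This reference was chosen after the data were seen.

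**Figure D3:**
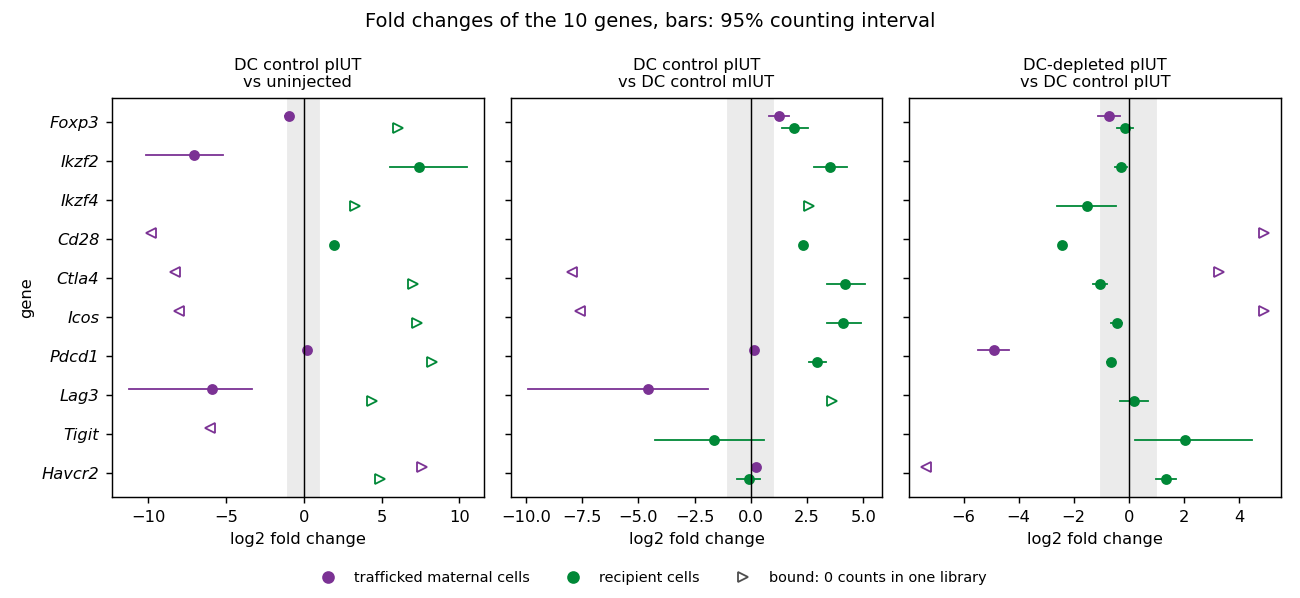
Log2 fold changes of each gene in trafficked maternal and recipient cells for 3 comparisons; circles are ratios with 95% counting intervals, open triangles are bounds where one library had 0 counts, the grey band is 2-fold, and a gene at 3 counts or fewer in both libraries is left out. After DC control pIUT against uninjected pups, recipient cells lie to the right by 2-fold or more for 9 genes, while maternal cells lie to the left by 2-fold or more for 6.

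The second comparison sets paternal against maternal donor cells. In recipient cells, 8 of the 10 genes were higher after pIUT than after mIUT and 1 lower, where 32.6% of all genes were higher and 28.3% lower. The median log2 fold change of the 10 genes was 2.76, beside 0.10 over all genes. Ctla4 was 18.0-fold higher (10.4 to 34.2), Icos 17.0-fold (10.4 to 30.1), Ikzf2 11.3-fold (7.03 to 19.3), Pdcd1 7.71-fold (6.03 to 10), Cd28 4.96-fold (4.48 to 5.51) and Foxp3 3.79-fold (2.58 to 5.74). Lag3 and Ikzf4 were at least 12.3-fold and 5.93-fold higher. Havcr2 was at 0.931-fold (0.659 to 1.32), and Tigit, with 3 against 6 counts, was at 0.317-fold (0.0514 to 1.49), so neither could be told from 1 at this depth. Of the 15 T-cell markers 14 were higher in the same comparison, with a sum of 6944 against 986 CPM, and 8 of 8 thymocyte markers, with 518 against 85.3 CPM. Natural killer and innate lymphoid markers (9 of 10), dendritic-cell markers (8 of 9), mast cell and basophil markers (7 of 8) and macrophage and monocyte markers (7 of 10) were higher too, and 9 of 9 granulocyte markers were lower. Per CD3 count, with CD3 itself 2.71-fold higher, 6 of the 10 genes were higher and 2 lower (13.8% and 56.6% of all genes). The CD3 genes did not move alike. Cd3d was at 399 CPM after mIUT and 386 CPM after pIUT, while Cd3e went from 36.1 to 382 CPM and Cd3g from 58.6 to 569 CPM. On this scale the differences of Pdcd1, Cd28 and Foxp3 were smaller, at 2.85-fold (2.23 to 3.70), 1.83-fold (1.66 to 2.04) and 1.40-fold (0.953 to 2.12). Per count of the 15 T-cell markers, Pdcd1 was at 1.09-fold, and Cd28 and Foxp3 were lower after pIUT, at 0.704-fold and 0.538-fold. Ctla4, Icos and Ikzf2 stayed higher, at 6.66, 6.29 and 4.17-fold per CD3 count and 2.56, 2.42 and 1.60-fold per T-cell marker count. Havcr2 and Tigit were lower, at 0.344 and 0.117-fold per CD3 count and 0.132 and 0.0451-fold per T-cell marker count. The part of these markers in the result was not tested.

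In maternal cells, 1 of the 10 genes was higher after pIUT than after mIUT and 3 lower, of the 6 with more than 3 counts in either library (43.5% and 29.1% of all genes tested in that way). Foxp3 was 2.39-fold higher (1.77 to 3.26), which falls below 2-fold with upper-quartile scaling. Ctla4 and Icos were at least 246-fold and at least 195-fold lower, and Lag3, with 1 count against 18, was lower by a ratio of 23.5 (3.71 to 979.7). Pdcd1 and Havcr2 differed little, at 1.11-fold (1.01 to 1.21) and 1.17-fold (1.05 to 1.32) of the mIUT level, and both signs turn with upper-quartile scaling. The maternal cells after pIUT therefore held Pdcd1, Havcr2 and Foxp3 as their only detected genes of the 10. Per CD3 count 3 of the 10 genes were higher after pIUT and 2 lower (75.3% and 11.9% of all genes), with CD3 itself 5.20-fold lower. Cell-type markers differed in the same comparison. Of 15 T-cell markers 2 were higher after pIUT and 11 lower, of 9 granulocyte markers 0 and 9, and of 8 erythroid markers 8 and 0. Of 7 hepatocyte markers 1 was higher and 6 lower, and of 6 mesenchymal markers 5 and 0. Their part in the result was not tested. Maternal mIUT is one of the libraries that stood apart.

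The third comparison asks what DC depletion of the dam before pIUT went with. In recipient cells 5 of the 10 genes differed by less than 2-fold. Of the 10 genes, 2 were higher by 2-fold or more and 3 lower in DC-depleted than in DC control pIUT, where 24.1% of all genes were higher and 14.9% lower. Foxp3 was at 0.904-fold (0.737 to 1.11), Lag3 at 1.14-fold (0.8 to 1.62), Ikzf2 at 0.824-fold (0.703 to 0.965) and Icos at 0.739-fold (0.643 to 0.850). Cd28 was 5.32-fold lower (4.91 to 5.77), Ctla4 2.05-fold lower (1.73 to 2.44), Ikzf4 2.83-fold lower (1.39 to 6.11) and Pdcd1 1.56-fold lower (1.40 to 1.73). Havcr2 was 2.53-fold higher (1.97 to 3.27), and Tigit, with 15 against 3 counts, 4.12-fold higher (1.17 to 22.2). The median log2 fold change was -0.36 for the 10 genes and 0.12 over all genes. Neither of these libraries is among those that stood apart.

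T-cell genes as a group fell more than most of the 10. All 15 T-cell markers and 7 of 8 thymocyte markers were lower by 2-fold or more in recipient DC-depleted pIUT, with medians of -2.03 and -2.36 on the log2 scale, and 9 of 10 macrophage and monocyte markers were higher, with a median of 1.71. Of 8 mast cell and basophil markers 7 were higher (median 2.58, 291 and 1302 CPM), and 7 of 7 hepatocyte markers (median 8.57, 4.98 and 586 CPM). Their part in the higher Havcr2 was not tested. The summed counts of the CD3 chain genes Cd3d, Cd3e and Cd3g, which every T cell needs for its receptor, were 60355 in recipient pIUT and 19049 in recipient DC-depleted pIUT, a 3.85-fold lower level by CPM. Per 1000 CD3 counts, Foxp3 was at 3.07 in DC control and 10.7 in DC-depleted pIUT, a ratio of 3.48 (2.83 to 4.27). Ikzf2 was at 5.30 and 16.8 (ratio 3.17, 2.71 to 3.71), Ctla4 at 6.11 and 11.4 (1.87, 1.58 to 2.22), Icos at 7.11 and 20.2 (2.84, 2.47 to 3.27) and Pdcd1 at 13.9 and 34.3 (2.47, 2.23 to 2.74). Havcr2 was at 1.41 and 13.7 per 1000 CD3 counts (9.73, 7.59 to 12.6). Cd28 was the one gene of the 10 that was lower on this scale, at 54.0 and 39.1 (0.723, 0.667 to 0.784), so it moved with the T-cell markers. In all, 7 of the 10 genes were 2-fold or more higher per CD3 count and 0 lower. Since CD3 itself fell, 84.3% of all genes were 2-fold or more higher on this scale and 2.91% lower, so the count for the 10 genes is not above that of genes at large. Which cells carried these transcripts was not measured.

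**Figure D4:**
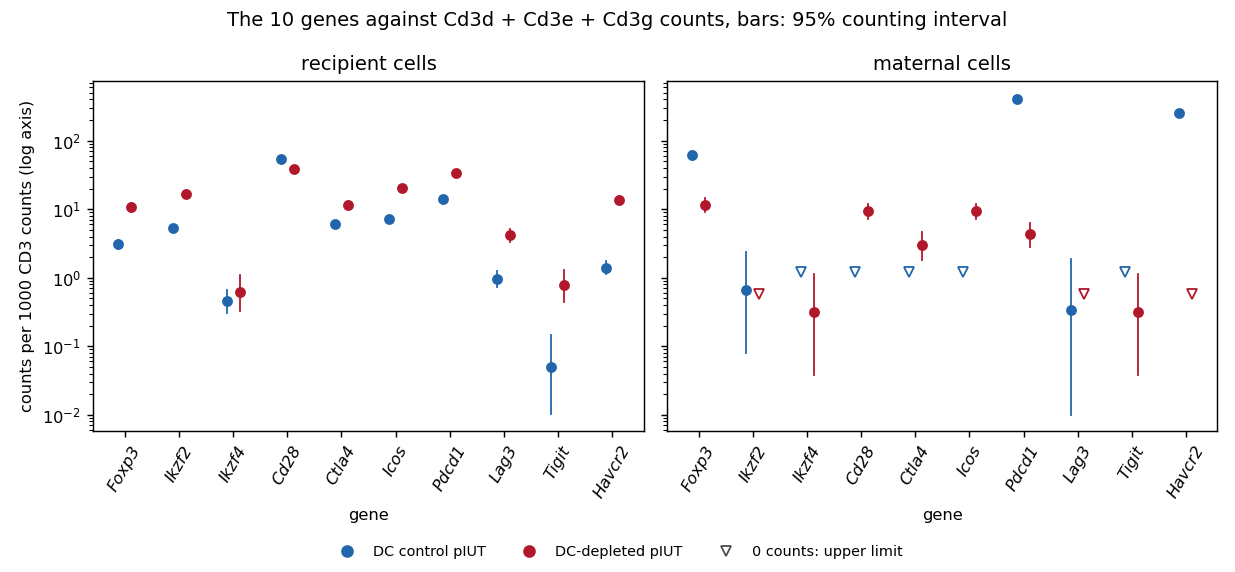
Counts of each gene per 1000 counts of Cd3d, Cd3e and Cd3g on a log axis, in recipient and in maternal cells of DC control and DC-depleted pIUT, with exact binomial 95% intervals; open triangles are upper limits for 0 counts. In recipient cells Foxp3 lay at 3.07 and 10.7, and in maternal cells Pdcd1 lay at 408 and 4.30.

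In maternal cells the 3 genes detected after DC control pIUT were lower with DC depletion. Pdcd1 went from 1223 to 27 counts, 29.6-fold lower (20.2 to 45.1), Havcr2 from 756 to 0, at least 165-fold lower, and Foxp3 from 184 to 73, 1.65-fold lower (1.25 to 2.19) but 0.13 higher on the log2 scale with upper-quartile scaling. Cd28, Ctla4 and Icos went from 0 to 59, 19 and 59 counts, at least 30.1, 9.70 and 30.1-fold higher. Of the 10 genes, 3 were higher by 2-fold or more and 2 lower (38.6% and 36.4% of all genes). Of the 9 granulocyte markers 7 were higher and 0 lower in the same comparison, of 9 dendritic-cell markers 5 and 2, of 8 mast-cell and basophil markers 6 and 0, and of 15 T-cell markers 6 and 2. Their part in the result was not tested. The other 4 genes had 3 counts or fewer in both libraries. CD3 counts were 2999 in maternal pIUT and 6280 in maternal DC-depleted pIUT. Per 1000 CD3 counts, Pdcd1 stood at 408 in maternal pIUT and 4.30 in maternal DC-depleted pIUT, Havcr2 at 252 and 0, and Foxp3 at 61.4 and 11.6. On this scale 3 of the 10 genes were higher and 3 lower (17.2% and 57.5% of all genes). A value of 408 PD-1 counts beside 1000 CD3 counts stood beside 70.9 in maternal mIUT, 20.3 in maternal uninjected and 13.9 in recipient pIUT.

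The receptor reads assembled from the same libraries give another readout of T cells. Clonotypes of the alpha and beta chains of the T-cell receptor numbered 822, 16, 17 and 444 in maternal cells and 34, 406, 4662 and 1570 in recipient cells. Beside these, Pdcd1 had 825, 847, 1223 and 27 counts in the maternal libraries, so Pdcd1 did not follow the number of clonotypes there. Recipient pIUT had both the most clonotypes and the most Cd28 counts of the 8 libraries, and recipient uninjected had 34 clonotypes beside 907 Cd28 counts.

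The last comparison sets maternal against recipient cells of the same pups. In uninjected pups 8 of the 10 genes were higher in maternal cells and 0 lower, where 47.8% of all genes were higher and 23.9% lower. After mIUT, 5 were higher and 3 lower (20.6% and 45.5% of all genes). After pIUT, 1 was higher and 6 lower (26.3% and 35.6% of all genes). After DC-depleted pIUT, 0 were higher and 9 lower (22.6% and 41.0% of all genes). Cell-type markers differed between the origins too. Of the 15 T-cell markers, 11 were higher and 0 lower in maternal cells of uninjected pups, 3 and 4 after mIUT, 0 and 15 after pIUT, and 0 and 10 after DC-depleted pIUT. Of the 10 markers of natural killer and innate lymphoid cells, 9 were higher and 1 lower in uninjected pups, and 0 and 9 after DC-depleted pIUT. Their part in the result was not tested. The uninjected and mIUT pairs each hold one of the libraries that stood apart, recipient uninjected and maternal mIUT. Foxp3 was within 2-fold between the origins in the 3 IUT groups after TMM scaling, at 1.41-fold (0.898 to 2.25), 0.888-fold (0.720 to 1.10) and 0.597-fold (0.450 to 0.784) of the recipient level in mIUT, pIUT and DC-depleted pIUT, but the sign of the pIUT and DC-depleted pIUT values turns under other scalings, and with total-count scaling the DC-depleted pIUT value was past 2-fold. Ctla4 changed sides between the IUT groups, from 32.2-fold higher in maternal cells after mIUT (18.7 to 60.8) to at least 138-fold lower after pIUT and 6.91-fold lower after DC-depleted pIUT (4.32 to 11.7). Havcr2 was 6.30-fold higher in maternal cells after mIUT (4.79 to 8.41), 7.94-fold higher after pIUT (6.34 to 10.1) and at least 52.4-fold lower after DC-depleted pIUT.

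The ligands of these receptors were measured in the same libraries. Of 13 ligand genes, 11, 8, 10 and 9 were detected in the maternal libraries and 7, 11, 11 and 13 in the recipient libraries. Lgals9, a ligand of TIM-3, was among the most abundant at 285, 874, 113 and 349 CPM in maternal cells and 223, 581, 477 and 314 CPM in recipient cells, with Lgals3, a ligand of LAG-3, at 71.2 to 2211 CPM and Hmgb1, which TIM-3 also binds, at 412 to 1276 CPM. Cd274 (PD-L1) had 269, 950, 2969 and 0 counts in maternal cells and 4784, 54, 1529 and 358 in recipient cells. Maternal pIUT thus had the highest maternal Cd274, at 58.7 CPM. Its Pdcd1 level of 24.2 CPM hardly differed from the 21.2 and 21.9 CPM of maternal uninjected and mIUT. Recipient uninjected had the highest Cd274, at 98.9 CPM, beside 0 counts of Pdcd1. Pdcd1lg2 (PD-L2) had 255, 256, 0 and 15 counts in maternal cells and 0, 0, 64 and 126 in recipient cells. Cd86 had 1218, 277, 773 and 137 counts in maternal cells and 963, 549, 432 and 2578 in recipient cells, and Cd80 241, 0, 673 and 0 in maternal cells and 1, 30, 62 and 87 in recipient cells. Recipient DC-depleted pIUT thus had the most Cd86 counts of the 8 libraries. Icosl had 2876, 0, 891 and 0 counts in maternal cells and 0, 425, 313 and 299 in recipient cells, and Pvr, a ligand of TIGIT, 273, 0, 0 and 0 in maternal cells and 120, 72, 263 and 245 in recipient cells. Nectin2, which TIGIT also binds, had 117, 725, 1300 and 79 counts in maternal cells and 0, 38, 50 and 273 in recipient cells. Fgl1, a liver-made ligand of LAG-3, had 280 counts in maternal and 359 in recipient DC-depleted pIUT and 0 in the other 6 libraries, beside hepatocyte lists of 406 and 586 CPM there and 4.98 to 10215 CPM elsewhere. Ceacam1, which binds TIM-3, was highest after mIUT, at 15480 counts in maternal and 13255 in recipient cells. In recipient cells, 4 of the 13 ligands were higher and 2 lower in DC-depleted than in DC control pIUT, near the 24.1% and 14.9% of all genes.

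Other genes of the pathway were read from lists. Of 20 genes associated with regulatory T cells, 3 were higher and 3 lower in recipient DC-depleted against DC control pIUT, where 24.1% of all genes were higher and 14.9% lower. In recipient pIUT against mIUT 10 were higher and 4 lower, where 32.6% and 28.3% of all genes were. In maternal cells 11, 15 and 18 of them were lower than in uninjected pups after mIUT, pIUT and DC-depleted pIUT, where 44.0%, 33.7% and 34.7% of all genes were lower, and 3, 3 and 0 were higher, where 26.5%, 33.3% and 35.3% of all genes were. Its most abundant members, Capg, Ebi3 and Il2rb, had 13840, 4034 and 3470 counts in recipient pIUT and 10864, 2746 and 5343 in recipient DC-depleted pIUT. Capg and Ebi3 are also expressed by myeloid cells, and the list summed highest, at 1677 CPM, in recipient mIUT, where Foxp3 had 31 counts. Of 15 partners of FOXP3, 2 were higher and 3 lower in recipient DC-depleted against DC control pIUT, and Satb1, a chromatin organiser of thymocytes and T cells, went from 553 to 87.3 CPM. In the same comparison, with the same shares of all genes, 3 of 12 other checkpoint receptors were higher and 3 lower, with Vsir (VISTA) at 356 and 106 CPM and Cd6 at 133 and 31.4 CPM. Of 11 exhaustion and memory factors, 2 were higher and 6 lower, with Id2 at 143 and 218 CPM, Tcf7 (TCF-1) at 706 and 120.3 CPM and Nr4a1 at 218 and 85.4 CPM.

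The genes whose levels over the 8 libraries were most like Foxp3, among 13939 genes of mean CPM of 1 or more, were Bmyc, Fyn, Nipsnap1, Tmem109 and A230005M16Rik, with Pearson r of log2(CPM + 0.5) of 0.978, 0.977, 0.963, 0.955 and 0.952. All 5 had 0 counts in recipient uninjected, as Foxp3 had, so they share with it a missing value in the library with the most missing genes. Ctla4 was most like Siglecg, Icos, Clcf1, Mrgpre and Shfl, with r of 0.977, 0.975, 0.964, 0.963 and 0.961. Siglecg, Icos, Clcf1 and Mrgpre had 0 counts in maternal pIUT and in recipient uninjected, as Ctla4 had. Icos, its neighbour on chromosome 1, was thus second of all genes by a measure that shared zeros raise, while Cd28 had an r of 0.26 with Ctla4. Foxp3 had an r of 0.33 with Cd3e and -0.12 with Cd4. These values are over 8 libraries that share their depth and sorting and carry no p.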

How the data were processed

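RNA of sorted cells was sequenced as 8 libraries, 1 per group and each pooled from several pups. The authors deposited 1 table of estimated counts per gene, made with the nf-core pipeline against GRCm39 with GENCODE M26. The methods name featureCounts, while the values are fractional and from salmon, so the settings behind them are not fully given. Per the labels' processing notes, bcl2fastq and StringTie were also used. The authors also deposited MiXCR clonotype tables, whose clone counts were summed by chain. The estimated counts were rounded to whole numbers and 25066 genes with a count were kept. TMM factors came from edgeR 4.0.16 (R 4.3.3), and gene positions from GENCODE M39, which held 97.99% of the gene IDs. Symbols and 250-base upstream windows came from that annotation and the GRCm39 genome.

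The members and gene lists were chosen with earlier results of these data known. With 1 library per group no p-value was computed. Fold changes are ratios of TMM-scaled CPM with exact conditional binomial 95% intervals. A library at 0 counts was set to a floor of 3 counts, giving a bound, and no fold is given where both were at or under it. Reads carry no molecular identifiers, so intervals cover counting error only. Genes were called at 2-fold or more, and medians use the floor. Alternatives were DESeq2 1.42.0 size factors, total counts, upper quartile, a filter of 10 counts, unrounded counts, a floor of 10, thresholds of 1.5 and 4, and edgeR's exact-test fold change at a dispersion of 0.4. All 10 genes are reported. Of each other list reported, the 3 genes of highest mean CPM and the known ligands were eligible for naming, as were the 5 genes most like Foxp3 and Ctla4. Cd4, Il2ra, Lrrc32 and Prdm1 were named outside this rule, after their values were seen, and so were the levels of each CD3 gene. The fold calculation was tested on simulated counts. Protein sequences were not used here.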

Additional observations from a re-analysis of the deposited data

Results flagged for a closer look

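Maternal and recipient cells moved in opposite directions, each by 2-fold or more, for some genes in 5 contrasts. The genes below are listed because they met this rule, and the share of all genes that meet it was not counted. Many genes moved in each origin. After pIUT against uninjected pups, 33.7% of all genes were lower in maternal cells and 52.2% higher in recipient cells. The differences between the origins were not tested, since each group is 1 library, and values are log2 fold changes with libraries of 3 counts or fewer set to 3 counts, so that several are bounds. After mIUT against uninjected pups, Foxp3 was at -2.19 in maternal and 4.12 in recipient cells, Ikzf2 at -6.09 and 3.34, and Tigit at -5.65 and 1.75. After pIUT against uninjected pups, Ikzf2 was at -6.47 and 6.84, Cd28 at -9.80 and 1.94, Ctla4 at -8.25 and 7.04, Icos at -8.02 and 7.26, and Lag3 at -4.32 and 4.37.

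After DC-depleted pIUT against uninjected pups, Foxp3 was at -1.66 in maternal and 5.90 in recipient cells, Ikzf2 at -5.86 and 6.56, Ctla4 at -4.98 and 6.00, and Icos at -3.11 and 6.82. In the same contrast Pdcd1 was at -4.70 and 7.59, Lag3 at -3.70 and 4.56, and Tigit at -5.42 and 2.14. These 3 contrasts share the uninjected libraries, and the recipient one had the largest share of missing genes. The recipient Tigit values rest on 6 counts after mIUT and 15 after DC-depleted pIUT.

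The contrasts without the uninjected libraries also held such genes. In DC-depleted against DC control pIUT, Cd28 was at 4.91 in maternal and -2.41 in recipient cells, Ctla4 at 3.28 and -1.04, and Havcr2 at -7.36 and 1.34. In pIUT against mIUT, Ctla4 was at -7.94 and 4.17, Icos at -7.61 and 4.09, and Lag3 at -2.97 and 3.62. Per CD3 count some pairs were no longer opposite. Foxp3 was at 0.80 and 5.44 after DC-depleted pIUT and Cd28 at -5.66 and -0.46 after pIUT, both against uninjected pups. Ctla4 was at 1.60 and 0.90 in DC-depleted against DC control pIUT. Others stayed opposite, such as Icos after pIUT against uninjected pups, at -3.88 and 4.86.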

How the results depend on the processing

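No paired analysis was run. Each treatment has 1 maternal and 1 recipient library, so pairs of the same pups have no replicate within a treatment. Pairing across treatments would use different treatments as replicates of one another. Of the recomputed counts of genes past 2-fold, 274 stayed within 1.5 times the reported value and 8 did not. Maternal pIUT against mIUT went from 1 higher to 0 with upper-quartile scaling and to 0 at 4-fold. Recipient pIUT against mIUT went from 1 lower to 0 with total counts, with a floor of 10 and at 4-fold. Recipient DC-depleted against DC control pIUT went from 2 higher to 1 with a floor of 10 and to 1 at 4-fold, and from 3 lower to 1 at 4-fold. The log2 fold changes of single genes moved beyond the counting interval in 161 of the recomputations and stayed within it in 802, and 2 called at 2-fold changed sign. With a floor of 10, Ikzf4 and Tigit in maternal against recipient DC-depleted pIUT became 0.47 and 0.15. Per the 15 T-cell markers in place of CD3, Ikzf4 in recipient pIUT against mIUT became -0.25. Scaling shifted all genes by up to 0.87 (upper quartile) and 0.71 (total counts) on the log2 scale. With total counts, the genes lower in DC-depleted against DC control pIUT were 3 in place of 2 in maternal cells and 2 in place of 3 in recipient cells, where Foxp3 went from -0.15 to 0.08. With recipient mIUT as reference, chosen after the data were seen, 8 genes were higher after pIUT and 8 after DC-depleted pIUT in place of 9 and 9. Differences under 2-fold also changed sign with the scaling, among them maternal Pdcd1 against uninjected pups after mIUT (total counts) and after pIUT (upper quartile). At a floor of 3 counts, Ikzf4, Tigit, Ikzf2 and Lag3 were detected in 2, 3, 4 and 4 of 8 libraries. The causes were not tested.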
